A study of Mus musculus with 40 samples.

Results

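The nuclear receptors examined here are 39 named genes of this transcription factor family, matched by gene identifier in a table of 21500 protein-coding genes measured in mouse liver. The members were chosen by name and not by a threshold on their values, with earlier results of these data known. Liver RNA came from 20 male C57BL/6J mice aged 20 weeks, all fed CDAA-HFD, a high fat diet without added choline in which amino acids replace protein, with 60% of energy from fat and 0.1% methionine, used as a model of steatohepatitis with fibrosis. Feeding began at 8 weeks of age. The 10 CDAA-HFD mice, numbered 31 to 40, ate the diet alone, and the 10 BLT1i mice, numbered 71 to 80, had the compound BLT1i at 90 mg/kg added after 4 weeks and continued for 8 weeks. BLT1 is the usual short name of the leukotriene B4 receptor 1, which attracts neutrophils, and the titles carry a further code, L_286, that the labels leave unexplained. No group on a control diet was analysed here, and every comparison is between male livers on the same fibrogenic diet.

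Nuclear receptors are transcription factors, most of which are switched on by small fat-soluble ligands such as hormones, bile acids, fatty acids, oxysterols or drugs. Many bind DNA next to a retinoid X receptor (RXR) as a pair and exchange corepressors for coactivators when the ligand binds. Their activity can therefore change without a change in their own RNA. In hepatocytes the family governs drug metabolism, fat burning and storage, bile acid and cholesterol balance, glucose output and the circadian rhythm of metabolism.

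Of the 39 receptor genes, 38 had enough counts to be tested, and 1 of them, Nr4a1, passed the test between BLT1i and CDAA-HFD mice, as higher. This is 2.63% of the tested receptors, against 5.63% of all 13993 tested genes (3.65% higher and 1.98% lower with BLT1i), so the share of receptors that passed was not above the share of all genes. A gene passed when its Benjamini-Hochberg adjusted p over all tested genes was at most 0.05 in edgeR's quasi-likelihood test on raw counts. No receptor gene passed as lower in edgeR, in DESeq2 or in limma-voom, and at an unadjusted p of at most 0.05 there were 6 higher and 1 lower, which is 7 of 38 receptors against 19.7% of all tested genes (10% higher and 9.64% lower). The median log2 fold change was 0.02 for the receptors and -0.01 for all genes, and the median size of the change, sign aside, was 0.0639 and 0.0653 (log2). The measurement was narrow for most members. The 95% confidence interval of the fold change lay within 1.2-fold either way for 26 of the 38 receptors and within 1.5-fold for 37, Nr4a1 being the exception.

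**Figure D1:**
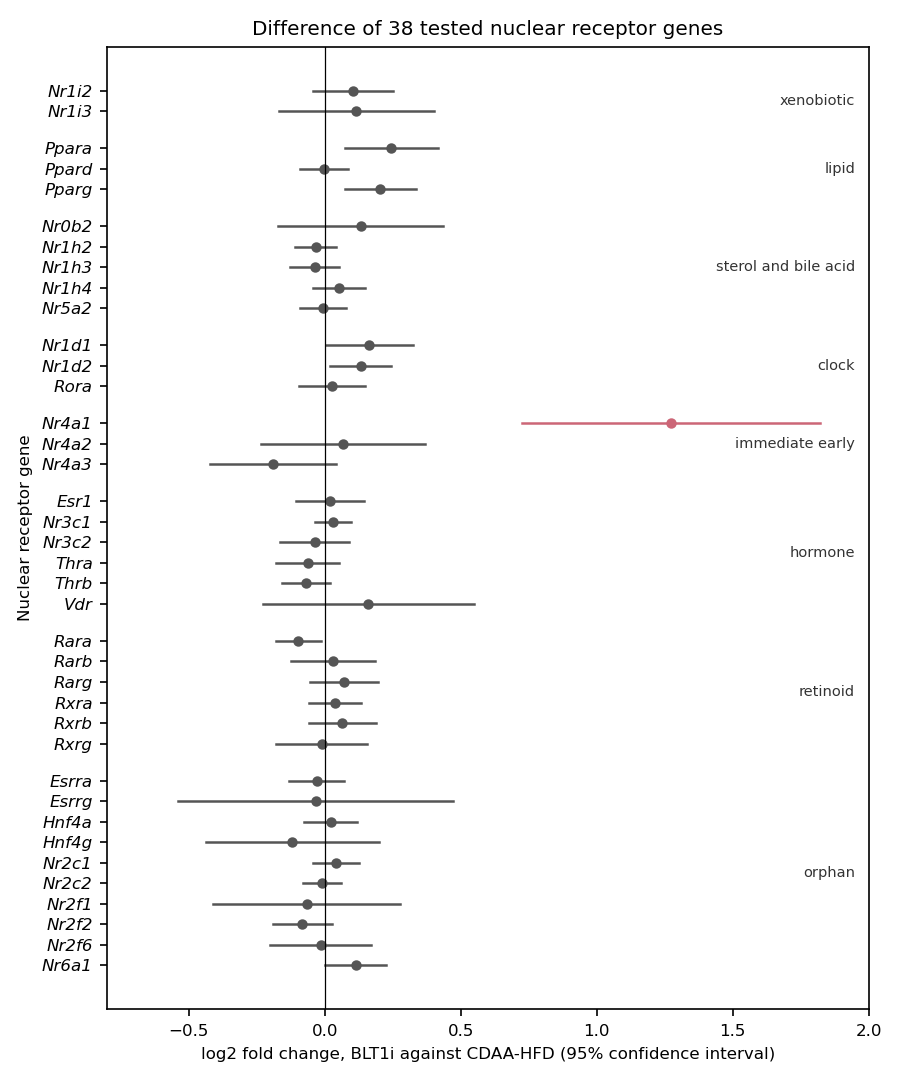
Difference of each tested nuclear receptor gene between BLT1i and CDAA-HFD mice as a log2 fold change (x axis) with its 95% confidence interval, grouped by role (y axis); red marks the gene that passed the test. Nr4a1 lies at 1.27, and the intervals of the other genes reach no further than -0.54 (Esrrg) and 0.55 (Vdr).

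The livers carried most of the family at appreciable levels. The deposited FPKM (fragments scaled to gene length and sequencing depth, which the authors rounded to whole numbers) averaged at least 1 for 33 receptors and at least 10 for 23. By this scale per length, Hnf4a, which maintains hepatocyte identity, was highest at a mean of 126.7 and Rxra, the main partner of the other receptors in liver, followed at 117.5. Their ranges over the 20 mice, 113 to 142 and 104 to 136, overlapped. Next came Nr1i3 at 50.9, Nr1d1 at 49.7 and Ppara at 38.8, followed by Nr2f6 at 36.6 and Nr1h3 at 36.1, and the ranges of these 5 overlapped as well (Nr1i3 35 to 76, Nr1h3 32 to 41). At the low end, Pgr, Vdr, Esrrg, Hnf4g and Nr2f1 were listed at 0 in every mouse after rounding. Pgr, the progesterone receptor, had 0.297 ± 0.126 CPM (counts per gene relative to library size; SD, n = 10) in CDAA-HFD mice and 0.234 ± 0.162 in BLT1i mice and was the member that did not reach the minimum for testing. The spread between mice of a group, as a coefficient of variation of CPM over the tested receptors, ran from 3.36% to 51.6% in CDAA-HFD mice with a median of 8.78%. In BLT1i mice it ran from 2.82% to 37.9% with a median of 9.97%.

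**Figure D2:**
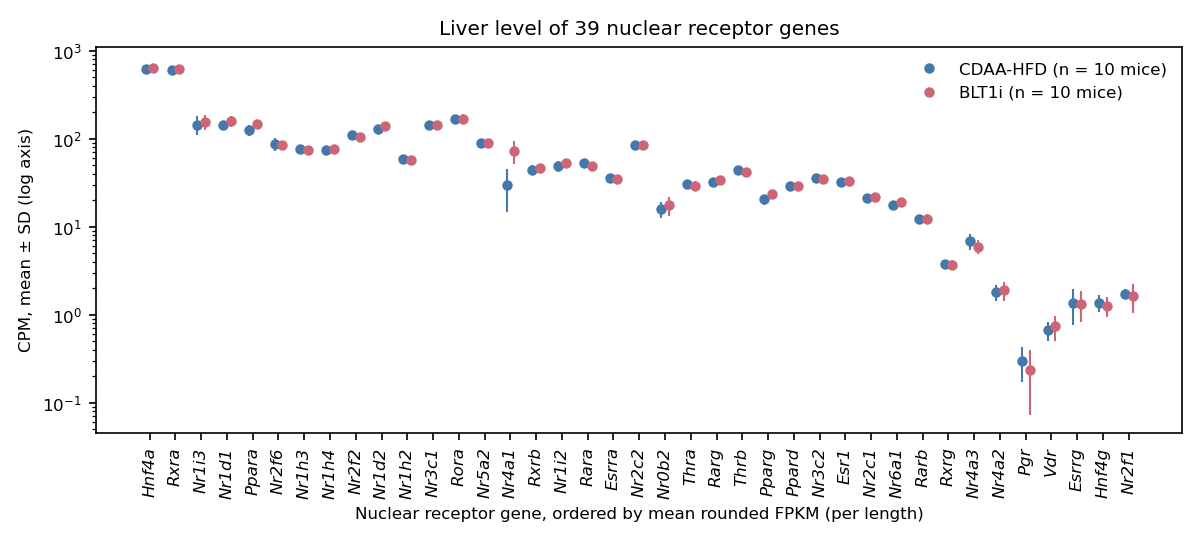
Level of the 39 nuclear receptor genes in the 2 groups as CPM (y axis, log scale; points are means and bars SD of 10 mice), ordered from left to right by mean rounded FPKM. The groups lie on top of each other for most genes, and Nr4a1 is the pair of points that stands apart.

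Nr4a1, Nr4a2 and Nr4a3 encode the orphan receptors NUR77, NURR1 and NOR1, which act without a known natural ligand in most settings and are induced within minutes of a stimulus as immediate early genes. In liver of fasted mice Nr4a1 is known to raise genes of glucose output. Their promoters are shown for a short motif that is present in all 3. Each window below holds 4 copies of TGACG, a core part of the cAMP response element (TGACGTCA), printed in capitals (CGTCA is the same motif on the opposite strand). The windows are from RefSeq on GRCm38.p6 and run from 250 bases before to 50 bases after a start site, 5′ to 3′ along the gene. They cover chr15:101266596-101266895 on the plus strand (Nr4a1), chr2:57123954-57124253 on the minus strand (Nr4a2) and chr4:48045055-48045354 on the plus strand (Nr4a3).
Nr4a1: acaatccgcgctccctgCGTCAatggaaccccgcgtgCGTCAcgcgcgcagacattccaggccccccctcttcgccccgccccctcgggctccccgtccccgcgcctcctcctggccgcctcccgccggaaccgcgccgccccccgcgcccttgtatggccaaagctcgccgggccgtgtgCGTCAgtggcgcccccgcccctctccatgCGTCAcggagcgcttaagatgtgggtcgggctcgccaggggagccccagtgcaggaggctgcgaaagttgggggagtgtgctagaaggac
Nr4a2: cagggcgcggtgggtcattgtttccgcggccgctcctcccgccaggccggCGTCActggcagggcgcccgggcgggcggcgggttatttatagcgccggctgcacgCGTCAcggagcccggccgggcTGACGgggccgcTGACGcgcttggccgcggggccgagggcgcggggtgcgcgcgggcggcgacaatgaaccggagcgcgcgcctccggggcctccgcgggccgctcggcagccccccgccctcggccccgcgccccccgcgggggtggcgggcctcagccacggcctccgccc
Nr4a3: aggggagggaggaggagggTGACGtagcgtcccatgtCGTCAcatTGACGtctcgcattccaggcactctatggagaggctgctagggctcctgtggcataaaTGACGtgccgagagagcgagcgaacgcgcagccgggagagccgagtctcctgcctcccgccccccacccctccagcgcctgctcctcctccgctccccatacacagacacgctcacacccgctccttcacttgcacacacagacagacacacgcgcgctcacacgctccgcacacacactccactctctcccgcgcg
Of 32841 promoter windows of this length, 20.8% hold TGACG at least once on either strand and 0.231% hold it at least 4 times. The full element TGACGTCA is in none of these 3 windows and in 1.79% of all windows. A match of letters is a description of the window and says nothing of what binds there.

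In CDAA-HFD mice Nr4a1 (ENSMUSG00000023034) had 12.3, 28.0 and 61.9 CPM in the lowest, median and highest mouse. In BLT1i mice the corresponding levels were 41.1, 77.1 and 111 CPM. The groups overlapped, yet every BLT1i mouse lay above the CDAA-HFD median and 6 of 10 lay above every CDAA-HFD mouse. Mean levels were 30.0 ± 15.5 and 72.7 ± 20.6 CPM (SD, n = 10 each), a 2.42-fold rise (log2 1.27 ± 0.26 SE, edgeR adjusted p = 0.00688). The paralogs Nr4a2 and Nr4a3 did not pass. Nr4a2 was scarce, at 1.81 ± 0.381 and 1.90 ± 0.473 CPM (log2 0.07, 95% interval -0.24 to 0.37, edgeR adjusted p = 0.857). Nr4a3 had 6.80 ± 1.34 and 5.92 ± 1.09 CPM (log2 -0.19, interval -0.42 to 0.04, edgeR adjusted p = 0.366).

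Several other immediate early genes, likewise induced within minutes of a stimulus, were higher as well. Of 18 such genes without a nuclear receptor among them, 10 passed as higher and 0 as lower, also 0 lower at an unadjusted p of at most 0.05 and in DESeq2, with a median log2 fold change of 0.53 beside -0.01 for all genes. Jun, an AP-1 subunit, rose by 0.71 (log2; edgeR adjusted p = 1.04e-05), Egr1, a zinc finger factor, by 1.49 (5.82e-05) and Zfp36, an RNA decay factor, by 0.74 (6.69e-05). The mean log2 CPM of the list ran from 4.90 to 5.71 in CDAA-HFD mice and from 5.64 to 6.24 in BLT1i mice, and it exceeded the highest CDAA-HFD score in 8 of 10 BLT1i mice. With this score as a covariate the difference of Nr4a1 was 0.08 (log2, edgeR adjusted p = 0.945) and no receptor passed, against 0.486% of all genes as higher. Since the score and the treatment differ together, their parts in the Nr4a1 result cannot be told apart. Nor can they for the target lists and markers below. Over all genes this covariate took the higher calls from 511 to 68 and the lower calls from 277 to 17. List counts given with the covariate below stand beside that general loss. Without the covariate, list and marker counts stand beside 3.65% higher and 1.98% lower of all tested genes. At an unadjusted p of at most 0.05 these shares were 10% and 9.64%.

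Within a group, the level of Nr4a1 followed that of Egr1. Pearson's r over the 10 CDAA-HFD mice was 0.902 (permutation p = 0.00057, adjusted p = 0.0171 over 60 receptor and target correlations) and Spearman's rho 0.915 (permutation p = 0.0005, adjusted p = 0.0276). Without mice 33 and 35, the farthest from the median, r was 0.925. In BLT1i mice r was 0.779 (permutation p = 0.00826, adjusted p = 0.0826) and rho 0.770 (permutation p = 0.0124, adjusted p = 0.187), with r = 0.789 without mice 75 and 78. The difference between the groups' correlations was not tested. Across the 18 immediate early genes the median r with Nr4a1 was 0.75 in CDAA-HFD and 0.50 in BLT1i mice, beside 0.02 and 0.01 over all genes of the same libraries, given as a description. Nr4a2 and Nr4a3 showed no called correlation with Nr4a1 in either group (4 correlations, r from -0.29 to 0.59, permutation adjusted p from 0.308 to 0.947). Of 5 tested genes of glucose output listed as NR4A targets, Pck1, the enzyme that commits carbon to glucose, passed as higher (log2 0.61 ± 0.17, edgeR adjusted p = 0.0441), and with the immediate early score as a covariate 0 of the 5 did. The other 4 did not pass, and the median of the 5 was 0.14 (log2).

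**Figure D3:**
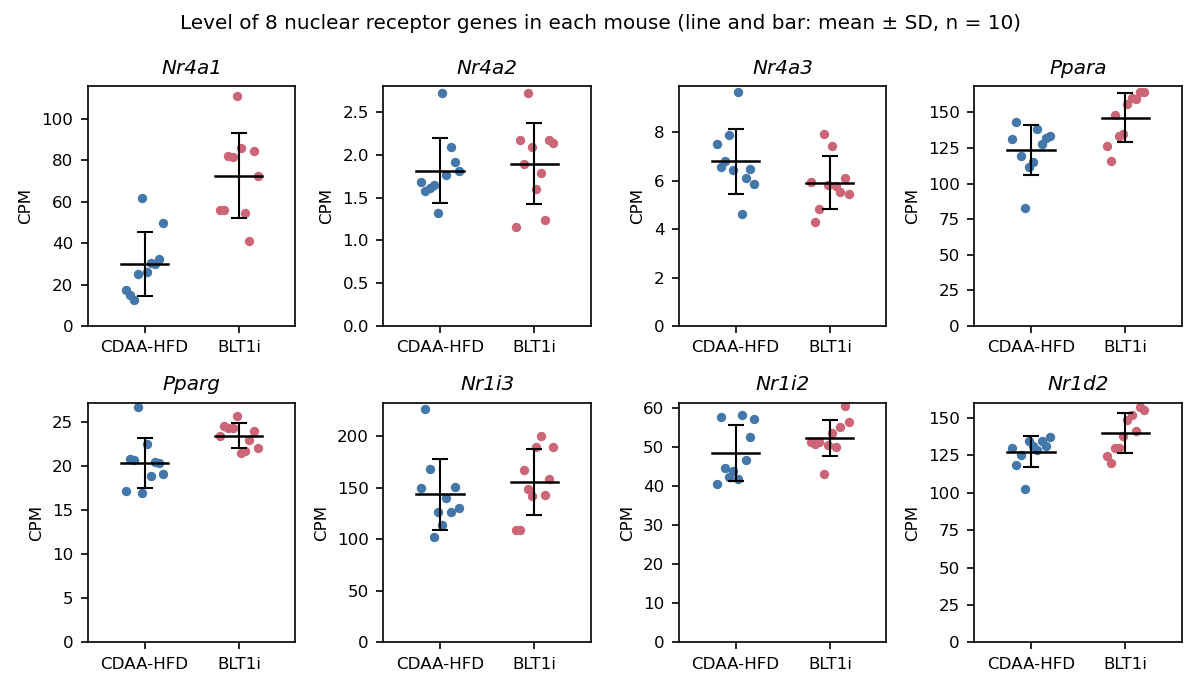
CPM (y axis, from 0) of 8 nuclear receptor genes in each mouse of the CDAA-HFD and BLT1i groups (x axis); each point is a mouse, the line and bar are mean ± SD of 10. Nr4a1 reaches 41.1 to 111 CPM in BLT1i mice and 12.3 to 61.9 in CDAA-HFD mice. The groups overlap in all 8 genes, and in Nr4a1, Ppara and Nr1d2 alike 6 BLT1i mice lie above every CDAA-HFD mouse.

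The xenobiotic receptors CAR (Nr1i3) and PXR (Nr1i2) sense drugs and other foreign compounds and switch on detoxifying enzymes and transporters. Nr1i3 had 103, 135 and 227 CPM in the lowest, median and highest CDAA-HFD mouse and 109, 154 and 200 in BLT1i mice. The BLT1i range lay wholly inside that of the controls, and the test was far from passing (log2 0.12, 95% interval -0.17 to 0.40, edgeR adjusted p = 0.710). Nr1i2 had 40.7, 45.7 and 58.4 CPM against 43.2, 51.3 and 60.5 (log2 0.10, interval -0.04 to 0.25, edgeR adjusted p = 0.460), with 9 of 10 BLT1i mice above the CDAA-HFD median. Exons of Nr1i3 overlap those of Tomm40l on the opposite strand in the GENCODE annotation, the longest overlap between single exons being 1072 bases. Strand use in the authors' counting is not stated by the labels, and part of the Nr1i3 count may belong to Tomm40l.

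Part of the genes that CAR and PXR control passed as higher, while the receptor genes did not pass. The target lists were chosen with earlier results of these data known, so their counts are a description. Of 24 tested target genes 12 passed as higher and 0 as lower (at an unadjusted p of at most 0.05, 18 and 1; in DESeq2, 15 and 0), and their median log2 fold change was 0.48. The lowest p belonged to Cyp3a11, a drug-metabolising cytochrome P450 (log2 1.43 ± 0.06, edgeR adjusted p = 1.63e-13), Cyp2c55 (1.93 ± 0.14) and Ces2a, a carboxylesterase (1.24 ± 0.10). Cyp2b10, the best known CAR target, had too few counts to be tested. With the immediate early score as a covariate 7 of the 24 passed as higher. Across mice the receptors' RNA and their targets were not tied in any called pair, with r from -0.69 to 0.53 over the 8 correlations of Nr1i3 and Nr1i2 with Cyp2c29, Cyp2c55, Cyp3a11 and Ces2a (lowest permutation adjusted p = 0.155). The median r of Nr1i3 with its 24 targets was 0.41 in CDAA-HFD mice and 0.02 in BLT1i mice. For Nr1i2 it was 0.18 and 0.04. Over all genes the medians were -0.01 and 0.02 for Nr1i3 and 0.02 and -0.01 for Nr1i2. The differences between the groups were not tested.

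The peroxisome proliferator-activated receptors respond to fatty acids. PPAR-alpha (Ppara) drives fat burning in hepatocytes, PPAR-gamma (Pparg) fat storage, and PPAR-delta (Ppard) acts broadly in energy use. Ppara had 82.7, 129 and 144 CPM in the lowest, median and highest CDAA-HFD mouse. In BLT1i mice it had 116, 152 and 164 CPM, and 6 of 10 lay above every CDAA-HFD mouse. The difference, log2 0.24 ± 0.08 SE (95% interval 0.07 to 0.41), did not pass in edgeR (adjusted p = 0.0869). Pparg had 16.9, 20.4 and 26.7 CPM against 21.5, 23.6 and 25.7, so that all 10 BLT1i mice were above the CDAA-HFD median and none was above the highest CDAA-HFD mouse. Its difference was log2 0.20 ± 0.06 (interval 0.07 to 0.33, edgeR adjusted p = 0.0573). Both genes lay close to the threshold, and the call depended on the method. DESeq2 called Ppara (adjusted p = 0.0427) and Pparg (0.0308) as higher, which with Nr4a1 made 3 receptors against 4.94% of all genes, and limma-voom called Pparg (adjusted p = 0.0181), 2 receptors against 4.38%. Without CDAA-HFD mouse 34, whose Ppara level was the lowest of all, the difference of Ppara was 0.19 (edgeR adjusted p = 0.0965) and Pparg passed (0.25, adjusted p = 0.00486). Ppard was at 29.0 ± 1.80 and 28.9 ± 1.84 CPM (interval -0.09 to 0.09).

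PPAR-alpha targets were the most widely raised of the target lists: 25 of 30 passed as higher and 0 as lower (0 lower also at an unadjusted p of at most 0.05 and in DESeq2), with a median log2 fold change of 0.44. Ehhadh, the peroxisomal bifunctional enzyme of fat oxidation, rose by 1.22 ± 0.08 (log2; edgeR adjusted p = 1.09e-09), Cyp4a31, a fatty acid hydroxylase, by 1.64 ± 0.13 and Acaa1b, a peroxisomal thiolase, by 0.93 ± 0.09. This ranking is a description, since the lists were chosen with earlier results of these data known. The receptor's own difference of 0.24 was smaller than the median of its targets. With the immediate early score as a covariate 6 of the 30 passed as higher. The PPAR-gamma list had 4 of 9 tested genes higher and 0 lower (0 lower at an unadjusted p of at most 0.05 and in DESeq2), among them Aqp7, a glycerol channel (0.86 ± 0.11, edgeR adjusted p = 2.63e-05), Gk, glycerol kinase (0.41 ± 0.07), and Cidec, a lipid droplet protein (0.70 ± 0.13). With that covariate 0 of these 9 passed, against 0.486% of all genes as higher.

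Binding of PPAR-alpha with RXR is known at direct repeats of AGGTCA spaced by 1 base, and the promoter of Fabp1, the liver fatty acid carrier and a listed target, is shown as an example of that layout. The window is chr6:71199629-71199928 on the plus strand (RefSeq, GRCm38.p6), and capitals mark a match on the opposite strand to AGGNCA repeated with any 1 base between the copies.
Fabp1: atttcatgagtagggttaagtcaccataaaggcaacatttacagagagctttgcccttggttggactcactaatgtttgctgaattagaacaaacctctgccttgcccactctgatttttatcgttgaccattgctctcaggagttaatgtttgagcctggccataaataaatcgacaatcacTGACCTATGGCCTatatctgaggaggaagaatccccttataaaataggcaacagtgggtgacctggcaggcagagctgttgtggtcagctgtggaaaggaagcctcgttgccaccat
This pattern, searched on both strands, is in 0.381% of all promoter windows and in 1 of the 24 windows of PPAR-alpha targets. Fabp1 itself had 294 ± 103 CPM in CDAA-HFD and 402 ± 84.4 CPM in BLT1i mice (log2 0.45 ± 0.15) and did not pass (edgeR adjusted p = 0.0928).

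By rank, the level of Ehhadh ran with that of Ppara in BLT1i mice. In BLT1i mice Ppara and Ehhadh had r = 0.809 (permutation p = 0.00395, adjusted p = 0.0592) and rho = 0.891 (permutation p = 0.00092, adjusted p = 0.0276), and r was 0.914 without mice 71 and 72. In CDAA-HFD mice r was 0.537 (permutation p = 0.0979, adjusted p = 0.333), rho 0.758 (permutation p = 0.0157, adjusted p = 0.189) and r 0.625 without mice 34 and 35. Over all 30 targets the median r with Ppara was 0.49 in CDAA-HFD and 0.64 in BLT1i mice, positive for 29 of 30 genes in each group, beside 0.01 and 0.00 over all genes. Whether clock state, described below, had a part in these correlations within groups was not tested. Between groups the Ehhadh levels did not overlap at all, while the Ppara levels did. The correlation of Ppara with Cyp4a14 was not called in either group (r = 0.276 and 0.401). That with Fgf21, also a listed target, was negative and not called (r = -0.548 and -0.649, permutation adjusted p = 0.333 and 0.155). Other receptors did not all run with their lists. Over Pparg, Nr1h3, Nr1h4, Nr1d1, Thrb, Nr3c1, Hnf4a and Esrra, the median r ranged from -0.39 (Nr3c1) to 0.45 (Esrra) in CDAA-HFD mice. In BLT1i mice it ranged from -0.27 (Pparg) to 0.69 (Hnf4a), the latter above the 0.64 of Ppara. The medians of Nr1i3, Nr1i2 and Nr4a1 are given above.

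**Figure D4:**
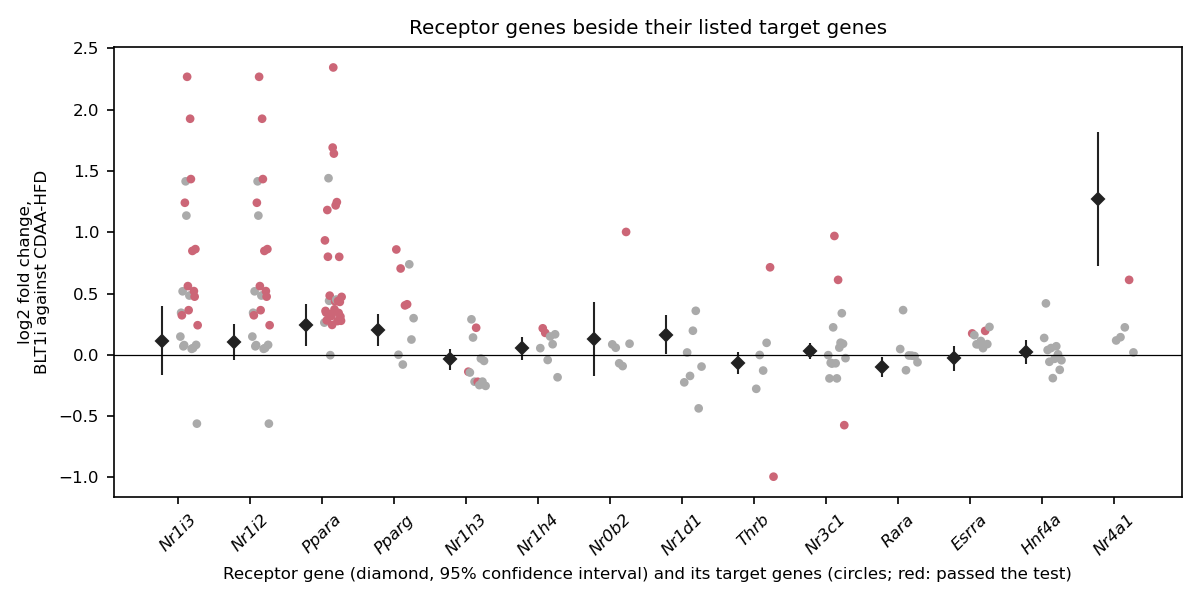
Log2 fold change of 14 receptor genes (diamonds with 95% confidence interval) beside that of the target genes listed for each (circles, red where the test was passed); Nr1i3 and Nr1i2 share a target list. For Nr1i3, Nr1i2 and Ppara the targets reach above 2 (log2) while the receptor stays below 0.25, and for Nr4a1 the receptor lies above its targets.

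**Figure D5:**
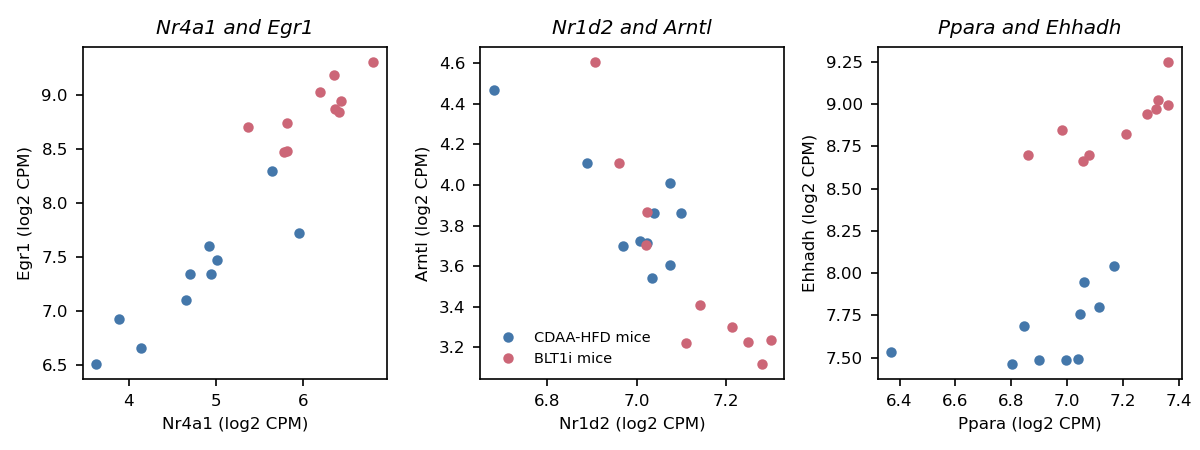
Level of 3 receptor genes (x axis, log2 CPM) against a gene each is known to control or to accompany (y axis, log2 CPM) in 10 CDAA-HFD and 10 BLT1i mice; each point is a mouse. Nr4a1 and Egr1 run together, Nr1d2 and Arntl run in opposite directions in BLT1i mice, and the Ehhadh levels of the groups are separate while their Ppara levels overlap.

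The oxysterol receptors LXR-alpha (Nr1h3) and LXR-beta (Nr1h2) raise cholesterol export and lipid synthesis, and the bile acid receptor FXR (Nr1h4) curbs bile acid synthesis in part by inducing the corepressor-like receptor SHP (Nr0b2), which opposes LRH-1 (Nr5a2). None of these 5 genes passed in edgeR, DESeq2 or limma-voom. Nr1h3 had 66.6, 77.3 and 85.4 CPM in the lowest, median and highest CDAA-HFD mouse and 68.1, 73.7 and 79.9 in BLT1i mice (log2 -0.04, interval -0.13 to 0.05). Nr1h4 had 66.6, 72.7 and 86.6 CPM against 69.5, 77.8 and 82.8 (log2 0.05, interval -0.04 to 0.15). Nr0b2 varied more, with 10.9, 15.6 and 20.2 CPM against 8.58, 17.6 and 23.2 (log2 0.13, interval -0.17 to 0.43). For all 3 genes the groups overlapped through most of their range. Nr1h2 and Nr5a2 had log2 differences of -0.03 and -0.01.

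The median of 12 LXR targets was -0.14 (log2). Of them, 1 passed as higher and 2 as lower, beside 3.65% and 1.98% of all tested genes. At an unadjusted p of at most 0.05 there were 2 higher and 5 lower, and with the immediate early score as a covariate 0 passed in either direction. Lpcat3, which builds polyunsaturated phospholipids, rose by 0.22 ± 0.05 (edgeR adjusted p = 0.00727), Lpl, lipoprotein lipase, fell by 0.22 on the log2 scale (0.0201) and Abca1, a cholesterol exporter, fell by 0.14 (0.0449). FXR targets had 2 of 8 higher and 0 lower (0 lower at an unadjusted p of at most 0.05 and in DESeq2), namely the bile canalicular transporters Abcb4 (0.22 ± 0.05, edgeR adjusted p = 0.00986) and Abcc2 (0.18 ± 0.05, 0.0421), and with the same covariate 0 of the 8 passed. Among 6 bile acid synthesis genes Cyp8b1, the sterol 12-alpha-hydroxylase that sets the share of cholic acid, rose by 1.002 ± 0.15 (edgeR adjusted p = 0.000291), and 1 gene of the list also passed with that covariate. Cyp7a1, the rate-limiting enzyme of the same pathway, had a difference of -0.07 ± 0.14 and did not pass.

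REV-ERB-alpha (Nr1d1) and REV-ERB-beta (Nr1d2) are repressors of the circadian clock and ROR-alpha (Rora) is the activator that competes for their sites. Nr1d2 had 103, 130 and 137 CPM in the lowest, median and highest CDAA-HFD mouse and 120, 140 and 157 in BLT1i mice, with 6 of 10 BLT1i mice above every CDAA-HFD mouse. Its difference of log2 0.13 ± 0.05 (interval 0.02 to 0.24) did not pass (edgeR adjusted p = 0.164), and neither did that of Nr1d1 (0.16 ± 0.08, adjusted p = 0.244) or Rora (0.03 ± 0.06, adjusted p = 0.861). Exons of Nr1d1 and Thra overlap on opposite strands (longest overlap 263 bases), so the split of counts between these members is uncertain in the same way as for Nr1i3. Of 7 listed REV-ERB and ROR targets edgeR called none, with 0 higher and 2 lower at an unadjusted p of at most 0.05 and 1 lower in DESeq2. The lowest p belonged to Npas2 (log2 -0.44 ± 0.14, edgeR adjusted p = 0.0613) and Cry1 (-0.17 ± 0.08, adjusted p = 0.200), both clock components. Among 9 clock output genes Hlf, a PAR bZIP factor, fell by 0.26 on the log2 scale (edgeR adjusted p = 0.0168). Of the 9 genes, 0 passed with the immediate early covariate.

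Arntl, which encodes the core clock activator BMAL1, is the textbook target of the REV-ERBs, and its promoter is shown for the site that names the pair. The window is chr7:113207261-113207560 on the plus strand (RefSeq, GRCm38.p6), and capitals mark TAGGTCA, the core of the element shared by REV-ERB and ROR, whose first base lies at +31 from the start site.
Arntl: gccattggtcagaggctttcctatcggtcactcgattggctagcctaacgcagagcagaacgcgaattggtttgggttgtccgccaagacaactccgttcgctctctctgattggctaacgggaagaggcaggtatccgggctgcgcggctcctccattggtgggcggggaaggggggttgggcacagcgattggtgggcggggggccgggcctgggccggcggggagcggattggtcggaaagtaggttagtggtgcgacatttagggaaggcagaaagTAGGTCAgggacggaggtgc
TAGGTCA, searched on both strands, is in 2.61% of all windows of this length. In BLT1i mice Nr1d2 and Arntl were opposed, with r = -0.908 (permutation p = 7e-05, adjusted p = 0.0042), rho = -0.818 (permutation p = 0.00617, adjusted p = 0.123) and r = -0.912 without mice 72 and 79. In CDAA-HFD mice r was -0.780 (permutation p = 0.0197, adjusted p = 0.122) with rho -0.309 (permutation p = 0.385, adjusted p = 0.677). There r turned to 0.381 without mice 32 and 34, so the relation in the CDAA-HFD mice rested on those 2. The difference between the groups was not tested. No correlation of Nr1d1 with Arntl was called (r = -0.218 and -0.317).

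Mice differed in clock state within each group. A clock score, the mean log2 CPM of Dbp, Tef, Per2, Per3 and Ciart minus that of Arntl, Npas2, Clock and Cry1, ran from -0.0098 to 1.57 in CDAA-HFD mice (median 1.16) and from 0.0087 to 2.10 in BLT1i mice (median 1.54). The score lay above every CDAA-HFD mouse in 5 of 10 BLT1i mice, so it was not balanced between the groups. It adds only some of the 9 listed clock output genes, whose median log2 fold change was -0.08. Likewise it subtracts some of the 7 REV-ERB and ROR targets, whose median was -0.10. With the score as a covariate 3 receptors passed as higher against 3.93% of all genes, Nr4a1, Pparg (log2 0.23, edgeR adjusted p = 0.0179) and Ppara (0.20, adjusted p = 0.0412).

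None of the 6 tested receptors for hormones that circulate in blood passed in edgeR, DESeq2 or limma-voom. Nr3c1, the glucocorticoid receptor, was the steadiest at 141 ± 7.76 and 144 ± 4.06 CPM (log2 0.03, interval -0.04 to 0.10). Thyroid hormone receptors Thrb (44.1 ± 3.69 and 42.0 ± 1.74 CPM, interval -0.16 to 0.02) and Thra (30.4 ± 1.68 and 29.1 ± 3.45) did not pass. Neither did Nr3c2, the mineralocorticoid receptor (35.7 ± 3.56 and 34.8 ± 3.46 CPM), Esr1, the oestrogen receptor alpha (32.3 ± 2.58 and 32.7 ± 3.85), or Vdr, the vitamin D receptor, which was near the detection limit of this depth (0.659 ± 0.157 and 0.736 ± 0.232, log2 interval -0.23 to 0.55). Single targets passed in both directions, beside 3.65% higher and 1.98% lower of all tested genes. Of 15 glucocorticoid receptor targets 2 passed as higher and 1 as lower, namely Igfbp1 (log2 0.97 ± 0.26, edgeR adjusted p = 0.0319), Pck1 as above and Tsc22d3, the anti-inflammatory GILZ, which fell by 0.57 on the log2 scale (0.0112), and with the immediate early covariate 0 passed in either direction. Of 6 thyroid hormone targets Me1, malic enzyme, rose by 0.71 ± 0.08 (9.57e-06) and Thrsp, a lipogenic factor, fell by 0.99 on the log2 scale (0.0112), and with that covariate 1 passed as higher and 0 as lower. Of the vitamin D targets 2 had enough counts, S100g and Cd14, and edgeR and DESeq2 called 0 of them, with 1 higher at an unadjusted p of at most 0.05.

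Retinoic acid receptors (Rara, Rarb, Rarg) respond to vitamin A acid, which in liver is stored as retinyl ester in stellate cells, and the RXRs are partners of the lipid, bile acid and xenobiotic receptors above. Rara showed the lowest p of the receptors that leaned downward, with 50.01, 52.3 and 57.1 CPM in the lowest, median and highest CDAA-HFD mouse and 43.1, 49.3 and 56.1 in BLT1i mice. Although its level in 7 of 10 BLT1i mice was under the lowest CDAA-HFD level, the difference was small (log2 -0.10 ± 0.04) and did not pass (edgeR adjusted p = 0.166). Rarg (32.5 ± 2.74 and 34.1 ± 3.81 CPM) and Rarb (12.1 ± 1.38 and 12.3 ± 1.59) did not pass either. The Rarb exons overlap Top2b on the opposite strand (longest overlap 1429 bases). Rxra was at 599 ± 40.4 and 614 ± 46.0 CPM (interval -0.06 to 0.13), Rxrb at 44.1 ± 5.34 and 46.1 ± 2.60 and Rxrg at 3.72 ± 0.323 and 3.68 ± 0.492. Of 7 tested retinoic acid targets edgeR and DESeq2 called 0, with 1 lower at an unadjusted p of at most 0.05, and the lowest p belonged to Dhrs3, a retinal reductase (log2 -0.13 ± 0.05, edgeR adjusted p = 0.143), and Cyp26b1, which degrades retinoic acid (0.36 ± 0.19, adjusted p = 0.299).

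The remaining orphan receptors stayed in a band from -0.12 to 0.11 (log2), and none passed. Hnf4a had 625 ± 21.0 and 634 ± 59.7 CPM. Its BLT1i levels spread to both sides, with 4 of 10 mice above and 4 below every CDAA-HFD mouse, and the difference in spread was not tested. Nr2f2, a COUP transcription factor of veins and stroma, had 109 ± 11.1 and 103 ± 7.17 CPM, and its relatives Nr2f6 and Nr2f1 had 86.3 ± 14.5 and 85.4 ± 8.53, and 1.73 ± 0.245 and 1.65 ± 0.594. The testicular receptors Nr2c2 (85.6 ± 4.85 and 84.9 ± 3.01) and Nr2c1 (21.2 ± 1.12 and 21.8 ± 1.26) had log2 intervals of -0.08 to 0.06 and -0.04 to 0.12. Nr6a1, the germ cell nuclear factor, had 17.7 ± 1.04 and 19.1 ± 2.04 CPM (log2 0.11 ± 0.05, edgeR adjusted p = 0.251). ERR-alpha (Esrra), which works with PGC-1 on mitochondrial genes, had 35.8 ± 2.64 and 35.1 ± 2.84 CPM, Esrrg 1.35 ± 0.596 and 1.33 ± 0.503 and Hnf4g 1.37 ± 0.310 and 1.26 ± 0.318. Exons of Nr2c2, Nr2f6 and Esrra overlap those of Mrps25, Ocel1 and Trmt112 on the opposite strand (longest overlaps 3533, 525 and 73 bases).

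ERR-alpha targets had 2 of 9 higher and 0 lower, with 0 lower also at an unadjusted p of at most 0.05 and in DESeq2. Ndufs1, a complex I subunit, was among them (log2 0.19 ± 0.04, edgeR adjusted p = 0.00271), and with the immediate early covariate 0 of the 9 passed. Of 11 HNF4A targets edgeR and DESeq2 called 0, with 2 higher and 1 lower at an unadjusted p of at most 0.05, and the lowest p belonged to F7, coagulation factor VII (log2 -0.19 ± 0.07, edgeR adjusted p = 0.121), and Apoa4, an apolipoprotein (0.42 ± 0.17, adjusted p = 0.154). In BLT1i mice, where the coefficient of variation of Hnf4a was 9.43% against 3.36% in CDAA-HFD mice, its median r with these 11 genes was 0.69, beside -0.11 in the latter. Over all genes the median r with Hnf4a was -0.0008 in BLT1i mice, with quartiles of -0.39 and 0.40, and 0.02 in CDAA-HFD mice. The tested pair of this list, Hnf4a with Apoc3, was not called in BLT1i mice (r = 0.692, permutation adjusted p = 0.122). Without mice 74 and 75 its r was 0.181, and in CDAA-HFD mice it was -0.183. The medians are a description of 10 mice a group, and their difference was not tested.

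No coregulator passed, nor did any tested receptor outside the 39. Of 16 coactivator and corepressor genes edgeR and DESeq2 called 0, with 1 higher and 1 lower at an unadjusted p of at most 0.05. Ppargc1a, the coactivator PGC-1-alpha, had a difference of 0.31 ± 0.13 (log2, edgeR adjusted p = 0.180). Of 10 further nuclear receptors 4 could be tested and 0 were called by edgeR, DESeq2 or at an unadjusted p of at most 0.05, with the lowest p for Esrrb (0.46 ± 0.24, edgeR adjusted p = 0.302) and Nr1h5 (0.12 ± 0.08, 0.438). Among 32 correlations between receptors (16 pairs in 2 groups) 0 were called by either coefficient and 4 had an unadjusted permutation p of at most 0.05. The closest were Ppara with Esrra in BLT1i mice (r = 0.850, permutation p = 0.00187, adjusted p = 0.0598; rho = 0.806, permutation p = 0.00706, adjusted p = 0.226) and Rara with Rarb in CDAA-HFD mice (r = 0.782, permutation p = 0.00833, adjusted p = 0.133; rho = 0.503, permutation p = 0.146, adjusted p = 0.584). Without the 2 mice farthest from the median these r were 0.676 and 0.318.

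Markers of the cell types in liver give the setting of these bulk values, in which fewer cells of a type and less RNA per cell cannot be told apart. Hepatocyte markers were abundant, with a summed level of 47021 to 55050 CPM in CDAA-HFD and 48652 to 58751 CPM in BLT1i mice, and 1 of 6 (Cyp2e1) passed as higher. Sinusoidal endothelial markers had 3 of 6 higher (Kdr, Clec4g and Oit3) with summed levels of 345 to 430 and 402 to 473 CPM. Of the myofibroblast markers 1 of 6 (Tagln) passed as higher and 0 as lower, at 2069 to 2843 and 1816 to 2596 CPM. Their median difference was -0.19 (log2), with 1 higher and 4 lower at an unadjusted p of at most 0.05 and 1 higher and 1 lower in DESeq2. Of the T cell markers 1 of 3 (Cd8a) passed as higher, at 4.91 to 7.89 and 4.20 to 10 CPM. In edgeR none passed of 7 stellate, 4 Kupffer cell, 6 macrophage, 5 neutrophil, 3 B cell and 5 cholangiocyte markers (at an unadjusted p of at most 0.05, 3, 2, 0, 0, 0 and 0 higher and 0, 0, 3, 1, 0 and 1 lower; DESeq2 called 1 Kupffer cell marker higher and 1 macrophage marker lower). Their summed levels in CDAA-HFD and BLT1i mice were 735 to 893 and 751 to 858 CPM for stellate cells, 105 to 270 and 164 to 367 for Kupffer cells and 1934 to 2732 and 1855 to 2494 for macrophages. For neutrophils they were 22.5 to 31.1 and 18.04 to 28.3 CPM, for B cells 2.38 to 6.90 and 3.53 to 5.38, and for cholangiocytes 622 to 912 and 560 to 826. With the immediate early covariate 0 markers passed. No marker was at 0 in all mice, and the part of cell composition in the receptor levels was not tested. The depth behind these values was 20994073 to 27456678 counts a mouse with CDAA-HFD alone and 18467060 to 26078285 with BLT1i.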

How the data were processed

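Liver RNA of 20 mice was sequenced in 2 lanes each, listed as 40 samples, and the deposited tables have a column for each mouse, which served as the replicate. Per the labels' protocols a stranded total RNA kit with ribosomal RNA removal and paired reads was used, although polyA RNA is entered as the molecule. The build was GRCm39, per the submitters' processing notes. The aligner, the counter and the strand setting were not given in the sources used here. Raw counts per gene were deposited by the authors, as were FPKM rounded to whole numbers, which were treated as a score for ordering levels and for alternatives. Of 21500 identifiers 21457 were named, and the 43 others held 0.00776% of counts.

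Counts were filtered with filterByExpr, scaled by TMM and compared over 13993 genes by the two-sided robust quasi-likelihood F-test of edgeR 4.0.16 in R 4.3.3. The SE is the log2 fold change divided by the square root of F. Low counts limit precision below about 1 CPM. Correlations used log2 CPM (prior count 2) and two-sided permutation tests of 100000 resamples. Alternatives were RLE, upper-quartile and total scaling, 2 filters, DESeq2 1.42.0, limma-voom (limma 3.58.1), log2 of rounded FPKM plus 1 or 0.1, 2 covariates, and each mouse left out in turn. Promoter windows were found for 36 of 39 receptors, and Thra, Nr3c1 and Hnf4g had none in the RefSeq table. Exon overlaps are from GENCODE M21, and each length is the longest overlap between single exons of the 2 genes.

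The members, the lists and the tests were chosen with earlier results of these data known. All members are described. The rule for other genes took from each list up to 3 genes of lowest p (2 where none passed) and the genes of called correlations, or of the 2 pairs with the lowest p, and 2 genes that it named are not reported here. Other called markers, Cyp2b10, Cyp7a1, Fabp1 and genes of uncalled correlations were named after their values were seen.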

Additional observations from a re-analysis of the deposited data

Results flagged for a closer look

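Of 80 sets of 10 values (38 tested receptor genes and 2 scores in each group), 8 had a highest or lowest mouse set apart from the rest by more than Dixon's 95% limit on log2 CPM or the score, and chance gives about 1 in 20. Levels are given as CPM, on which the gaps differ. Mouse 34 of the CDAA-HFD group accounted for 3 of them, as the lowest in Ppara (82.7 CPM, group median 129), in Nr1d2 (103 CPM, median 130) and in the clock score (-0.0098, median 1.16). Without it the difference of Ppara was 0.19 (log2, edgeR adjusted p = 0.0965) and that of Nr1d2 0.10 (adjusted p = 0.271), so neither passed with or without it.

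Mouse 36 of the same group was the lowest in Rxrb (30.8 CPM, median 46.3) and Nr2f6 (51.4 CPM, median 86.5). Without it the differences were 0.02 (log2, edgeR adjusted p = 0.864) and -0.08 (adjusted p = 0.499). Among BLT1i mice, mouse 79 was the lowest in Nr0b2 (8.58 CPM, median 17.6), mouse 72 the highest in Rora (223 CPM, median 161) and mouse 75 the highest in the immediate early score (6.24, median 5.85). The difference of Nr0b2 without mouse 79 was 0.21 (log2, edgeR adjusted p = 0.366), and that of Rora without mouse 72 was -0.03 (adjusted p = 0.787), on the other side of 0 from its value with all mice.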

How the results depend on the processing

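Of 1169 receptor values under 31 alternatives, 1160 kept their call, and 35 of 38 receptors kept it throughout; the exceptions were Nr4a1, Ppara and Pparg. The count of receptors higher was 1 and became 3 with DESeq2, 2 with limma-voom, 0 with the immediate early score and 3 with the clock score as covariate, and 1 to 2 with single mice left out (2 without mouse 34 or 36, through Pparg, or without 72, through Ppara). The difference of Nr4a1 was 1.18 to 1.45 (log2) with single mice left out, and each of these calls held. Over all genes, the lower count of 277 became 540 with library totals, 169 and 167 with rounded FPKM plus 1 and plus 0.1, 17 with the immediate early covariate, and 168 to 342 with single mice left out (171 without mouse 33, 168 without 79), and the higher count of 511 became 68 with the immediate early covariate. The 5 target genes lower became 8 with library totals. The share of calls that were higher was 64.8% with TMM, 66.0% with RLE, 52.5% with upper-quartile scaling and 42.0% with library totals. The causes were not tested.

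Signs changed in 63 of the receptor values, all without a call. With library totals Rora was -0.0036, Esr1 -0.010 and Hnf4a -0.010 (log2). Ppard was 0.00055 with DESeq2, and with limma-voom Ppard was 0.0071, Nr5a2 0.0037, Rxrg 0.00094 and Esrrg 0.027. With rounded FPKM plus 1 Rora was -0.015, Nr4a2 -0.10 and Nr3c1 -0.0199, and with 0.1 they were -0.016, -0.35 and -0.021. With the immediate early covariate Nr1i2 was -0.018, Nr1h3 0.11, Nr5a2 0.041, Nr1d2 -0.0046, Rora -0.018, Nr4a2 -0.16, Thrb 0.11, Nr3c2 0.12, Rxrb -0.056, Rxrg 0.15 and Nr2f6 0.11. With single mice left out the ranges were -0.018 to 0.043 for Esr1, -0.15 to 0.098 for Esrrg, -0.00033 to 0.041 for Hnf4a, -0.021 to 0.0068 for Nr2c2, -0.16 to 0.0051 for Nr2f1, -0.078 to 0.018 for Nr2f6, -0.0095 to 0.14 for Nr4a2, -0.024 to 0.012 for Nr5a2, -0.019 to 0.017 for Ppard, -0.029 to 0.045 for Rora and -0.051 to 0.011 for Rxrg.

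Signs also changed in 21 of 276 correlations, none called. With RLE scaling r of Nr1d1 and Npas2 in BLT1i mice was 0.0015. Without the 2 farthest mice, r in BLT1i mice was 0.020 for Nr1i3 and Cyp2c29, -0.00058 for Pparg and Cidec, 0.0028 for Pparg and Mogat1, 0.236 for Nr1h3 and Scd1, 0.231 for Nr1h4 and Abcb11, 0.525 for Nr0b2 and Cyp8b1, 0.661 for Nr1d1 and Arntl, 0.333 for Nr1d1 and Npas2, 0.0061 for Nr3c1 and Tsc22d3, 0.216 for Nr3c1 and Fkbp5, -0.445 for Nr1d1 and Nr1d2, -0.220 for Ppara and Nr1d1, and -0.404 for Nr1h2 and Nr1h3. In CDAA-HFD mice it was 0.046 for Nr1i3 and Cyp2c55, -0.078 for Pparg and Mogat1, 0.171 for Nr1d1 and Arntl, 0.381 for Nr1d2 and Arntl, 0.174 for Esrra and Idh3a, 0.278 for Nr4a1 and Nr4a2, and 0.0073 for Hnf4a and Nr1i3. Ppara and Ehhadh in BLT1i mice became called (r = 0.914, permutation adjusted p = 0.0144).

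No paired analysis was possible because the groups share no mouse numbers. The labels give no cage, batch or collection order, and the numbers run in a separate block for each group, so these cannot be told apart from treatment.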

Other observations

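Each tested receptor was also set against the clock score and the immediate early score within each group, a comparison chosen after seeing the data, with 76 correlations per score. Arntl is part of the clock score and Egr1 of the immediate early score. The results for Nr1d2 and Nr4a1 are therefore not independent of their correlations with those genes above. For the clock score, Nr1d2 (r = 0.931, permutation p = 9e-05, adjusted p = 0.00684; rho = 0.842, permutation p = 0.00384, adjusted p = 0.146; r = 0.856 without mice 71 and 72) and Esrra (r = 0.867, permutation p = 0.00108, adjusted p = 0.041; rho = 0.903, permutation p = 0.00077, adjusted p = 0.0585; r = 0.717 without the same mice) were called in BLT1i mice by Pearson's coefficient and no receptor by Spearman's. In CDAA-HFD mice r was 0.819 (permutation p = 0.024, adjusted p = 0.228) and 0.536 (permutation p = 0.0939, adjusted p = 0.376). Ppara was not called, with r = 0.831 in BLT1i mice (permutation p = 0.00347, adjusted p = 0.0879) and 0.738 in CDAA-HFD mice (permutation p = 0.0503, adjusted p = 0.318). Its rho was 0.758 and 0.321 (permutation adjusted p = 0.232 and 0.758). Its r was 0.564 in BLT1i mice without mice 71 and 72, and 0.211 in CDAA-HFD mice without mice 33 and 34. For the immediate early score, Nr4a1 was called in CDAA-HFD mice by both (r = 0.915, permutation p = 0.00022, adjusted p = 0.0167; rho = 0.939, permutation p = 0.00026, adjusted p = 0.0198; r = 0.873 without mice 33 and 40). In BLT1i mice it was not (r = 0.638, permutation p = 0.0432, adjusted p = 0.475; r = 0.326 without mice 71 and 75). Nr1h3, the LXR-alpha gene, ran against that score in CDAA-HFD mice (r = -0.875, permutation p = 0.0006, adjusted p = 0.0228; rho = -0.661, permutation p = 0.0443, adjusted p = 0.375; r = -0.689 without mice 33 and 40). This was not seen in BLT1i mice (r = 0.0352, permutation p = 0.929, adjusted p = 0.942; rho = 0.127, permutation p = 0.732, adjusted p = 0.856), and the differences between groups were not tested.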
